A study of Ovis aries with 32 samples.

Results

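Collagen chain genes encode the polypeptides that assemble, in threes, into the collagens of the extracellular matrix. They were taken as the rows of the count table whose symbol is COL, a number, A and a number, which gave 42 of 28524 rows. Of these, 29 had at least 10 counts in at least 4 of 32 libraries and are described here as members. They comprise 8 of 11 fibrillar chains, 6 of 6 chains of the basement membrane network (type IV), 5 of 5 beaded filament chains (type VI) and 4 of 9 fibril-associated chains. The others are both multiplexins (COL15A1 and COL18A1), 2 of 3 short chain network genes (COL8A1 and COL8A2), 1 of 3 transmembrane chains (COL13A1) and COL28A1, 1 of 2 chains placed in no class. The anchoring fibril chain COL7A1 was not kept.

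In fat, every adipocyte is wrapped in a basement membrane built on type IV collagen, and a looser fibrous matrix of types I, III, V and VI lies between the cells. Fibrillar chains form the banded fibrils that carry tension, with type V setting their diameter, while type VI forms beaded filaments that link basement membranes to the fibres around them. Fibril-associated collagens such as COL12A1 and COL14A1 sit on the fibril surface, and the multiplexins COL15A1 and COL18A1 lie in or next to basement membranes.

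The study is a sheep (Ovis aries) model of polycystic ovary syndrome, in which female lambs are exposed to excess testosterone before birth. In the testosterone group (sheep 48, 185, 233 and 255), the mothers received testosterone propionate by injection 2 times weekly between gestation days 30 and 90. Each dose was 100 mg, or 1.2 mg/kg, carried in 2 ml of corn oil. Control sheep (98, 131, 132 and 201) came from ewes assigned to a control group, for which the labels mention no injection. The female offspring of both groups were ovariectomized after their second breeding season, received a 1 cm estradiol implant and 2 progesterone implants for 14 days, and then 4 estradiol implants of 30 mm for 18 hours before tissue was taken. A ewe gave at most 1 daughter to a group. Their age in years is not given. Each sheep gave visceral (mesenteric, at the rumen), subcutaneous (sternal), perirenal and epicardial fat, so each of the 8 combinations of depot and treatment held 4 libraries from 4 animals. Messenger RNA was read at its 3′ end, and values are read counts or CPM, counts scaled to a common library size, which are not divided by transcript length. Because whole tissue was sampled, more cells of a type and more RNA per cell cannot be told apart in any value below.

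Total counts per library ran from 784135 to 8267824, and the subcutaneous library of testosterone sheep 48 was the shallowest. Adipocyte markers were present in every library, and none of the 8 was at 0 in any group. A few libraries stood apart. ARGLU1, whose transcript is largely retained in nuclei, stood at 26355 CPM in subcutaneous fat of sheep 48 and at 19704 CPM in visceral fat of sheep 255, against 236 to 4996 CPM in the other 30. The library labelled epicardial of sheep 255 had 94.6 CPM of HOXC6, which marks body position along the trunk, against at most 2.21 CPM in the other 7 epicardial libraries and 74.3 to 113 CPM in the 8 visceral ones. On this gene it goes against its depot label. Epicardial libraries also varied in heart muscle transcripts, whose 8 measured markers summed to 6.39 to 16974 CPM in testosterone sheep and 6.89 to 9676 CPM in control sheep, and to at most 34.0 CPM elsewhere. They were highest in sheep 48 and 98. The counts of members called in each depot are therefore also given without these libraries.

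Members together took 0.287% to 0.916% of the counts of a library. Type IV chains led. COL4A1, which encodes the more abundant chain of the common type IV molecule, averaged 2008 CPM over the 32 libraries and made up 35.0% of the members' summed CPM. COL3A1, the chain of type III fibrils, followed at 714 CPM, then COL15A1 at 414, COL1A1 at 355, COL8A1 at 345, COL4A2 at 307 and COL6A1 at 268 CPM. At the other end COL4A3, COL4A4, COL6A5 and COL11A1 averaged between 1.32 and 1.71 CPM. The threshold for keeping a gene fell between COL11A1 and COL6A5, with 10 counts in 4 libraries each, and COL11A2, which reached it in 2. The cartilage chain COL2A1 had no count in any library.

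The summed CPM of members was 6494 ± 1856 in testosterone sheep and 5082 ± 1158 in control sheep in visceral fat, and 6151 ± 1126 in testosterone sheep and 6253 ± 279 in control sheep in subcutaneous fat (SD, n = 4). In perirenal fat it was 5163 ± 1144 in testosterone sheep and 4266 ± 1245 in control sheep. In epicardial fat it was 5646 ± 452 in testosterone sheep and 6808 ± 727 in control sheep. Type IV chains summed to 1905 ± 349 CPM in epicardial and 3261 ± 731 CPM in subcutaneous fat of testosterone sheep, and to 1888 ± 368 CPM in epicardial and 3161 ± 324 CPM in subcutaneous fat of control sheep. Fibrillar chains summed to 1989 ± 345 CPM in epicardial and 1409 ± 421 CPM in subcutaneous fat of testosterone sheep, and to 2737 ± 322 CPM in epicardial and 1401 ± 352 CPM in subcutaneous fat of control sheep. The highest sum of a library, 9143 CPM, belonged to visceral fat of testosterone sheep 233, where fibrillar chains alone reached 4884 CPM.

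**Figure D1:**
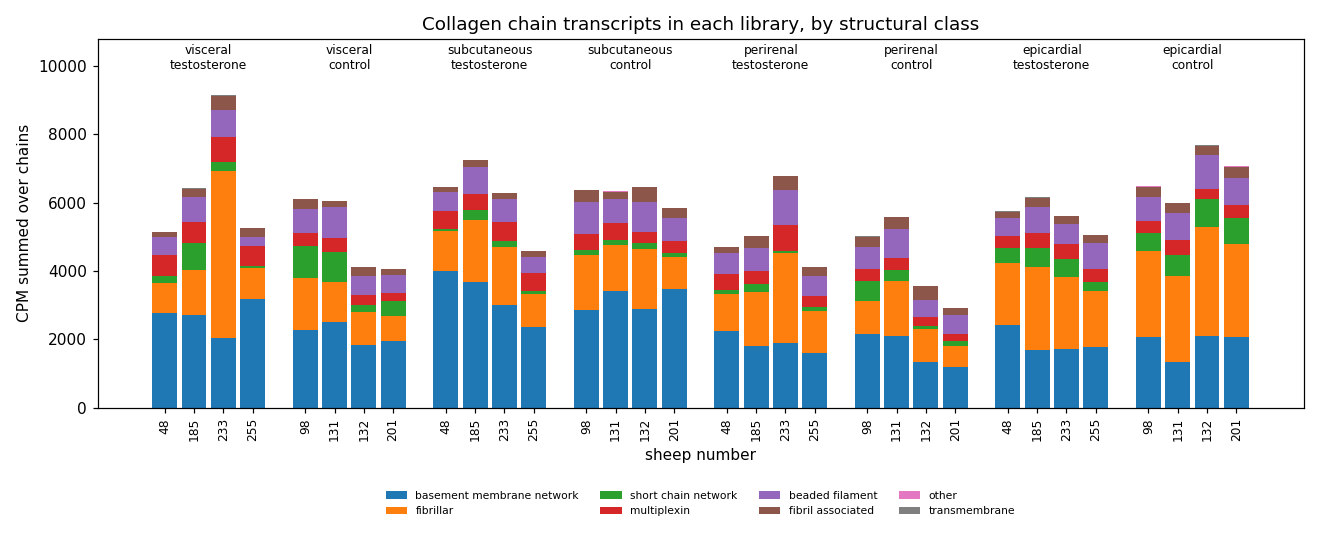
CPM of the 29 collagen chains in each of 32 libraries, stacked by structural class, with sheep numbers under the bars. Type IV chains form the largest block in all subcutaneous libraries, and the visceral library of testosterone sheep 233 reaches 9143 CPM through its fibrillar chains.

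The first question was which chains set a depot apart from the average of the remaining 3 in the same sheep. It was asked in testosterone sheep and in control sheep separately, so the answers come from different animals. Epicardial fat, which lies directly on the heart muscle, carried most of the differences. In testosterone sheep 8 of 27 members tested were higher there and 0 lower by edgeR's quasi-likelihood test (Benjamini-Hochberg adjusted p under 0.05), against 2.97% of all genes tested that were higher and 1.49% that were lower, 4.46% in all. In control sheep 16 of 27 were higher and 2 lower, against 15% and 12.8% of all genes, 27.7% in all. The median log2 difference over the members tested was 0.43 in testosterone sheep and 1.05 in control sheep, and -0.00 and 0.02 over all genes tested. All 8 members called in testosterone sheep were also called, in the same direction, in control sheep. Without the 3 libraries that stand apart, 9 members were higher and 1 lower in testosterone sheep, and the 8 were among them.

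Among the fibrillar chains, 3 of 7 tested were higher in epicardial fat of testosterone sheep and 7 of 7 in control sheep. COL1A1 encodes the chain present in 2 copies in each type I molecule. It had 444, 502, 404 and 429 CPM in epicardial fat of testosterone sheep 48, 185, 233 and 255, against 122 to 1556 (median 263) CPM in their 12 libraries of other depots. In control sheep 98, 131, 132 and 201 it had 554, 429.7, 831 and 737 CPM, against 118 to 377 (median 183) CPM. The epicardial libraries of control sheep lay above all others of those sheep, whereas those of testosterone sheep were overlapped, with visceral fat of sheep 233 at 1556 CPM. The log2 difference was 0.62 (SE 0.37, adjusted p = 0.371) in testosterone sheep and 1.64 (SE 0.30, adjusted p = 0.00199) in control sheep.

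COL1A2, the partner chain of type I collagen, had 107, 195, 165 and 122 CPM in epicardial fat of testosterone sheep, against 53.9 to 371 (median 95.0) CPM in their other depots. It had 250.0, 212, 229 and 225 CPM in control sheep, against 46.4 to 176 (median 77.4) CPM. Again only the control libraries were clear of the other depots, and the log2 difference was 0.43 (SE 0.29, adjusted p = 0.442) in testosterone sheep and 1.30 (SE 0.29, adjusted p = 0.00669) in control sheep. COL3A1 had 685, 913, 965 and 580.0 CPM in epicardial fat of testosterone sheep, against 281 to 2376 (median 537) CPM in the other depots. In control sheep it had 1262, 1277, 1304 and 1075 CPM, against 222 to 778 (median 472) CPM. All 4 control epicardial libraries lay above every other control library, while the testosterone libraries overlapped. Its log2 difference was 0.43 (SE 0.29, adjusted p = 0.440) in testosterone sheep and 1.38 (SE 0.17, adjusted p = 1.67e-05) in control sheep.

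COL5A1, COL5A3 and COL27A1 were higher in epicardial fat of both groups. COL5A1, the core chain of type V collagen, differed by 0.81 (SE 0.19, adjusted p = 0.0243) in testosterone sheep and 1.35 (SE 0.20, adjusted p = 0.000165) in control sheep on the log2 scale. COL5A3, its less widespread relative, had 292, 357, 240.0 and 195 CPM in epicardial fat of testosterone sheep and 152, 169, 279 and 252 CPM in control sheep. Testosterone sheep 48 and 185 also held 329 and 355 CPM in subcutaneous fat, within the epicardial range. The log2 difference of COL5A3 was 1.09 (SE 0.18, adjusted p = 0.00314) in testosterone sheep and 1.05 (SE 0.21, adjusted p = 0.00270) in control sheep. COL27A1, a fibrillar chain known from cartilage, had 36.7, 17.1, 34.7 and 12.98 CPM in epicardial fat of testosterone sheep, against 1.82 to 25.7 (median 3.28) CPM in their other depots. In control sheep it had 17.7, 9.89, 13.4 and 14.6 CPM, against 1.70 to 5.30 (median 2.60) CPM. The control groups did not overlap, and in testosterone sheep visceral fat of sheep 255, at 25.7 CPM, lay within the epicardial range. COL27A1 differed by 2.44 (SE 0.42, adjusted p = 0.00455) in testosterone sheep and 2.36 (SE 0.24, adjusted p = 2.06e-06) in control sheep. COL5A2, the second type V chain, was the fibrillar chain with the smallest difference, -0.18 (SE 0.20, adjusted p = 0.658) in testosterone sheep and 0.44 (SE 0.15, adjusted p = 0.0347) in control sheep.

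**Figure D2:**
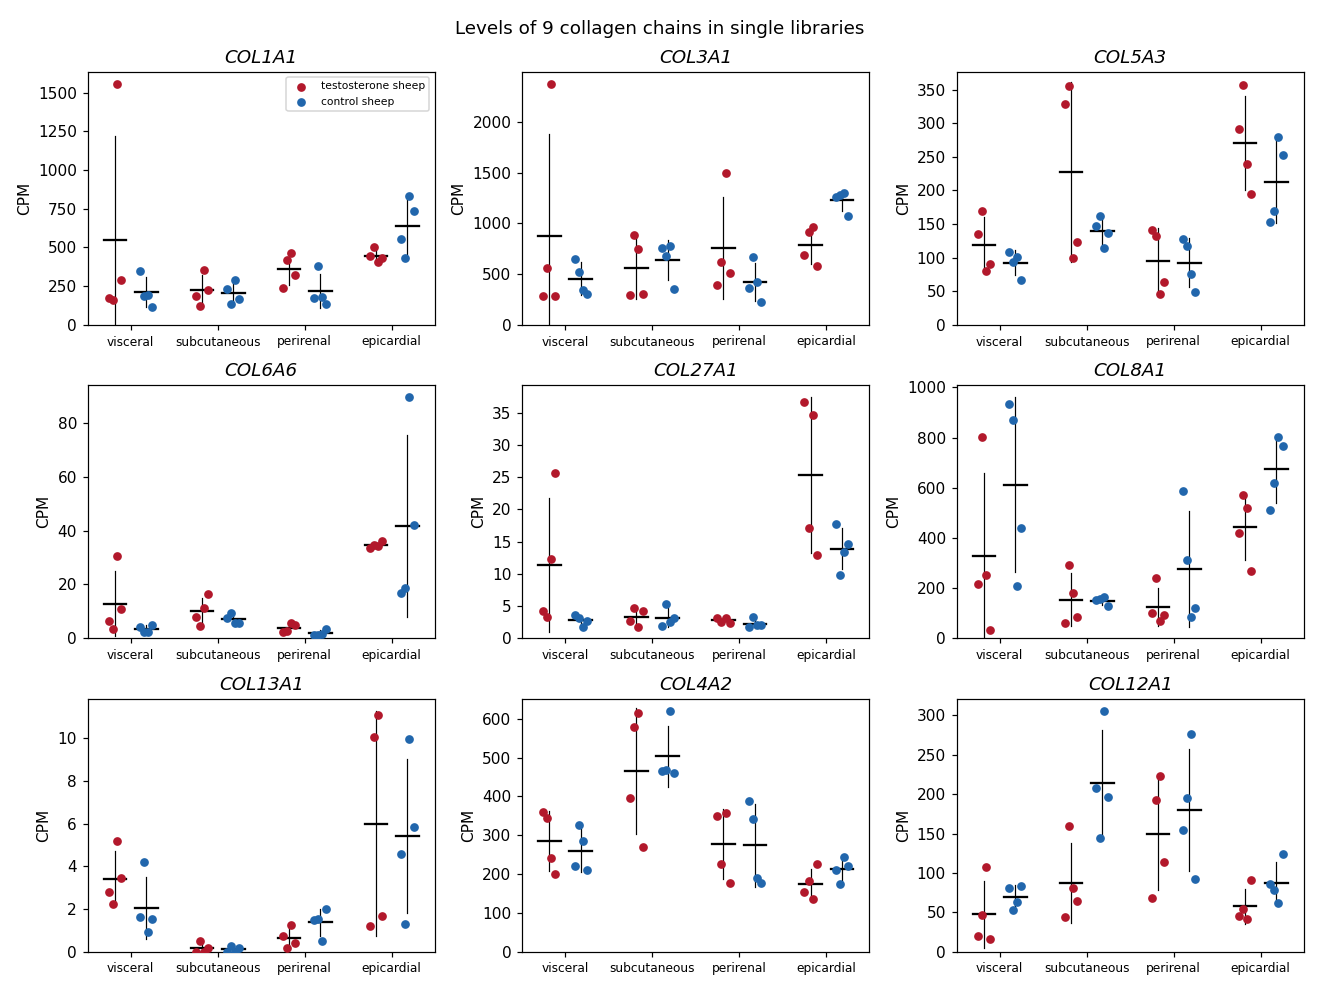
CPM of 9 collagen chains in single libraries (dots), by depot, with testosterone sheep left of control sheep in each depot, the mean as a horizontal bar and 1 SD as a vertical line (n = 4). COL6A6 is highest in epicardial fat, COL4A2 in subcutaneous fat, and 1 visceral library of a testosterone sheep stands far above the rest for COL1A1 and COL3A1.

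Type VI chains split. COL6A1, COL6A2 and COL6A3 form the common beaded filament, and COL6A5 and COL6A6 are chains that can take the place of COL6A3 in it. COL6A6 had 33.6, 34.6, 34.2 and 36.1 CPM in epicardial fat of testosterone sheep, against 2.42 to 30.5 (median 6.17) CPM in their other depots. In control sheep it had 17.0, 18.7, 89.6 and 42.0 CPM, against 1.06 to 9.53 (median 3.92) CPM. In both groups all 4 epicardial libraries lay above all 12 others, narrowly so for sheep 48, whose 33.6 CPM compared with 30.5 CPM in visceral fat of sheep 233. The log2 difference of COL6A6 was 2.34 (SE 0.30, adjusted p = 0.000442) in testosterone sheep and 3.40 (SE 0.36, adjusted p = 1.83e-05) in control sheep, and it remained called under each alternative setting and with any 1 sheep left out. The common chains showed little of this. COL6A1 had 165, 252, 172 and 268 CPM in epicardial fat of testosterone sheep and 268, 296, 321 and 260.1 CPM in control sheep. COL6A2 had 143, 199.8, 158 and 189 CPM in testosterone sheep and 177, 218, 239 and 228 CPM in control sheep. Both lay within the range of the other depots, with log2 differences of -0.18 (SE 0.25, adjusted p = 0.745) and 0.01 (SE 0.23, adjusted p = 0.992) in testosterone sheep, and -0.00 (SE 0.16, adjusted p = 0.987) and 0.08 (SE 0.13, adjusted p = 0.698) in control sheep. COL6A3 had 186, 278, 212 and 244 CPM in epicardial fat of testosterone sheep and 244, 265, 332 and 262 CPM in control sheep, overlapping the other depots in both groups. It differed by 0.31 (SE 0.22, adjusted p = 0.482) in testosterone sheep and 0.54 (SE 0.18, adjusted p = 0.0371) in control sheep.

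Type IV chains differed in both directions. COL4A2, the second chain of the common type IV molecule, had 155, 183, 135 and 226 CPM in epicardial fat of testosterone sheep, against 176 to 615 (median 347) CPM in the other depots. The control values were 211, 176, 245 and 222 CPM, against 177 to 619.7 (median 334) CPM. The ranges overlapped in both groups, and the log2 difference was -0.86 (SE 0.26, adjusted p = 0.0733) in testosterone sheep and -0.61 (SE 0.19, adjusted p = 0.0245) in control sheep. COL4A1 had 2248, 1492, 1576 and 1548 CPM in epicardial fat of testosterone sheep and 1834, 1149, 1838 and 1828 CPM in control sheep, with log2 differences of -0.37 (SE 0.17, adjusted p = 0.237) in testosterone sheep and -0.19 (SE 0.17, adjusted p = 0.432) in control sheep. COL4A3 and COL4A4, which join COL4A5 in the type IV network of kidney glomeruli, were higher in control sheep by 1.20 (SE 0.34, adjusted p = 0.0142) and 1.94 (SE 0.50, adjusted p = 0.00837). Their levels were low, at 2.87 ± 1.79 and 2.95 ± 0.668 CPM in control epicardial fat (SD, n = 4). In testosterone sheep COL4A3 differed by 0.89 (SE 0.63, adjusted p = 0.470), and COL4A4 did not pass the count filter there.

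The remaining epicardial chains were of mixed classes. COL8A1, a short chain network collagen of vessel walls and corneal basement membrane, had 421, 570.4, 519 and 267 CPM in epicardial fat of testosterone sheep, against 34.3 to 802 (median 141) CPM in the other depots. In control sheep it had 510.4, 619.5, 801 and 767 CPM, against 83.7 to 933 (median 186) CPM. Visceral libraries overlapped it in both groups, with 933 and 869 CPM in control sheep 98 and 131. Its log2 difference was 1.49 (SE 0.35, adjusted p = 0.0261) in testosterone sheep and 1.44 (SE 0.41, adjusted p = 0.0237) in control sheep. Its partner COL8A2 differed in the opposite direction, by -0.51 (SE 0.32, adjusted p = 0.406) in testosterone sheep and -0.998 (SE 0.26, adjusted p = 0.00944) in control sheep, and only the control value passed. COL16A1, a fibril-associated chain, was higher by 0.89 (SE 0.18, adjusted p = 0.00963) in testosterone sheep and 1.10 (SE 0.21, adjusted p = 0.00111) in control sheep. COL21A1, of the same class, differed by 0.80 (SE 0.37, adjusted p = 0.244) in testosterone sheep and 1.91 (SE 0.25, adjusted p = 3.73e-05) in control sheep.

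COL13A1, a transmembrane collagen of cell adhesions and the neuromuscular junction, had 1.20, 10.05, 11.1 and 1.69 CPM in epicardial fat of testosterone sheep and 4.58, 1.28, 9.99 and 5.85 CPM in control sheep. In the other depots it had 0 to 5.18 (median 0.623) CPM in testosterone sheep and 0 to 4.19 (median 1.19) CPM in control sheep. The libraries of sheep 48, 255 and 131 lay within the range of the other depots, and the rest lay above it. It was higher by 2.82 (SE 0.55, adjusted p = 0.00876) in testosterone sheep and 2.96 (SE 0.55, adjusted p = 0.000957) in control sheep. COL28A1, a type VI-like chain known in mice from the basement membrane around Schwann cells, had 10.8, 2.21, 12.5 and 2.07 CPM in epicardial fat of testosterone sheep and 21.9, 13.7, 1.21 and 13.6 CPM in control sheep. Sheep 185, 255 and 132 were low and overlapped the other depots, which held 0.181 to 6.21 (median 2.38) CPM in testosterone sheep and 0 to 6.07 (median 2.69) CPM in control sheep. Its log2 difference was 1.56 (SE 0.40, adjusted p = 0.0374) in testosterone sheep and 1.98 (SE 0.28, adjusted p = 5.73e-05) in control sheep.

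**Figure D3:**
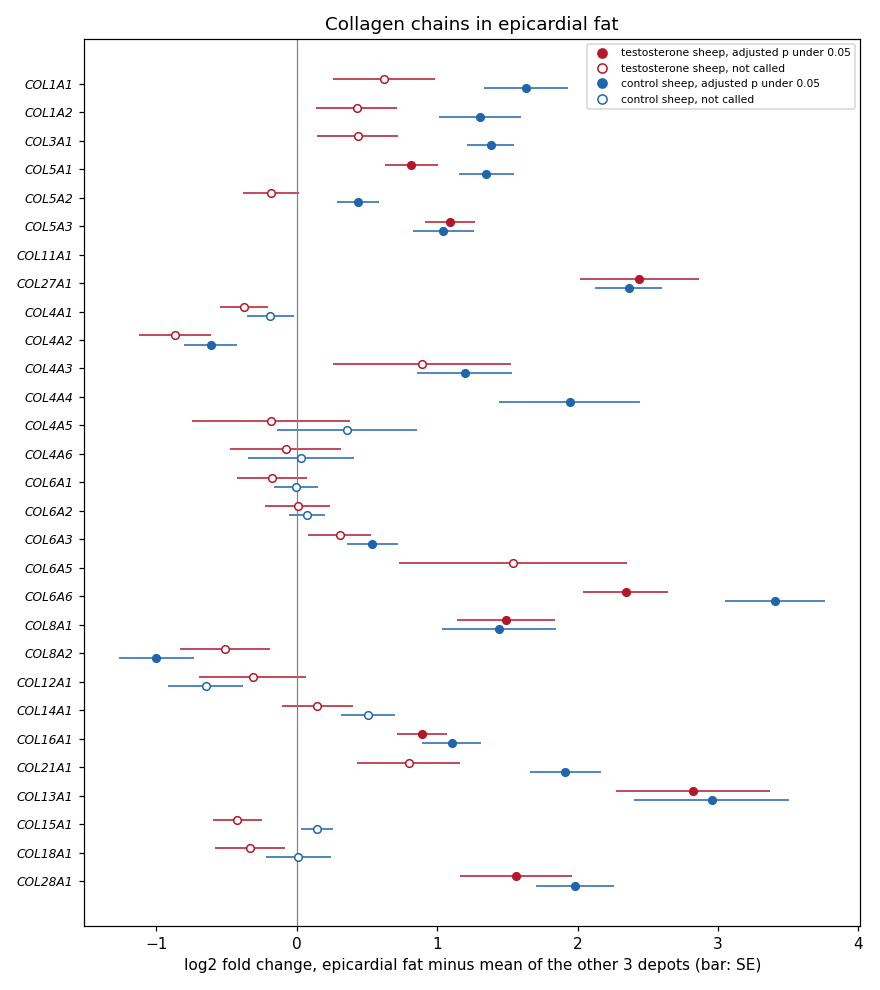
Log2 fold change of each collagen chain, epicardial over the average of the remaining 3 depots (bars, SE), with testosterone sheep above control sheep in each row and filled dots for adjusted p under 0.05 by edgeR. All 8 filled dots of testosterone sheep lie to the right of 0, and control sheep have 16 to the right and 2 to the left.

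These calls were unequal in firmness. Of 18 members called in control sheep, 11 were called again in every alternative fit and with any 1 sheep left out, namely COL6A6, COL13A1, COL27A1, COL28A1, COL4A4, COL21A1, COL1A1, COL3A1, COL5A1, COL16A1 and COL5A3. Of 8 members called in testosterone sheep this held for 1, COL6A6. Leaving out sheep 233 ended the testosterone call of COL27A1 (adjusted p = 0.0865) and of COL5A3 (adjusted p = 0.0633). With 1 sheep left out, between 3 (without sheep 233) and 10 members were called in testosterone sheep and between 14 and 16 in control sheep. Without the heart-rich epicardial library of sheep 48, 6 members were called in testosterone sheep, 5 of the 8 among them. Without that of sheep 98, 18 were called in control sheep, 16 of the 18 among them. That an epicardial call in control sheep was missed in testosterone sheep does not show a difference between the groups. In the joint test of the interaction of testosterone and depot, 0 of 29 members passed by edgeR (5 at unadjusted p under 0.05) and 0 by DESeq2, where 0.00703% of all genes passed by edgeR.

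Other cell types also moved with the epicardial samples. All 3 cardiac muscle markers tested were higher in both groups. Of the Schwann cell markers, 5 of 6 tested were higher in testosterone sheep, and 4 of 5 were higher and 1 lower in control sheep. In epicardial fat the Schwann cell markers summed to 275 to 749 CPM in testosterone sheep and 199 to 439 CPM in control sheep, with 0 of 6 markers at 0. Their median sum was nevertheless lowest in epicardial fat. In testosterone sheep it was 398 CPM there, against 676 (visceral), 546 (subcutaneous) and 427 CPM (perirenal). In control sheep it was 302 CPM, against 673 (visceral), 361 (subcutaneous) and 416 CPM (perirenal). The 7 cartilage and valve markers summed to 45.9 to 78.0 CPM in testosterone sheep, with 2 markers at 0, and to 67.1 to 88.5 CPM in control sheep, with 1 at 0. No other library held more than 27.5 CPM of them. Of 8 adipocyte markers, 0 were called in testosterone sheep (4 at unadjusted p under 0.05) and 4 were lower in control sheep. They summed to 8381 to 26492 CPM in testosterone sheep and 7065 to 18904 CPM in control sheep. Of 10 fibroblast and progenitor markers, 0 were higher and 1 lower in testosterone sheep, and 4 were higher and 1 lower in control sheep. Of 8 endothelial markers, 0 were called in testosterone sheep (2 at unadjusted p under 0.05) and 6 were lower in control sheep. The part of these cells in the epicardial collagen values was not tested.

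Against the average of the other depots, subcutaneous fat had more COL4A2 and less COL13A1, COL14A1 and COL28A1 in both groups. In testosterone sheep 1 of 27 members was higher and 3 were lower, against 1.25% and 1.3% of all genes tested, 2.54% in all. In control sheep 4 were higher and 5 lower, against 11.5% and 11.5% of all genes, 23% in all, so that the shares of members were close to those of all genes. All 4 members called in testosterone sheep were called in the same direction in control sheep. COL4A2 had 396, 579, 615 and 270.1 CPM in subcutaneous fat of testosterone sheep, against 135 to 359 (median 227) CPM in their other depots. In control sheep it had 465, 467, 619.7 and 461 CPM, against 176 to 388 (median 222) CPM. The control libraries were clear of the other depots, whereas sheep 255, at 270.1 CPM, fell within their range in the testosterone group. COL4A2 was higher by 0.92 (SE 0.23, adjusted p = 0.0479) in testosterone sheep and 1.03 (SE 0.17, adjusted p = 0.000709) in control sheep.

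COL4A1 had 3606, 3087, 2368 and 2089 CPM in subcutaneous fat of testosterone sheep and 2389.7, 2943, 2267 and 2999 CPM in control sheep. The control libraries lay above all others of those sheep, which reached 2165 CPM, while testosterone sheep overlapped through visceral fat of sheep 255 at 2964 CPM. The log2 difference was 0.57 (SE 0.16, adjusted p = 0.0743) in testosterone sheep and 0.70 (SE 0.16, adjusted p = 0.00463) in control sheep. COL12A1, a fibril-associated chain, was higher in control sheep by 1.02 (SE 0.24, adjusted p = 0.0102), with 208, 145, 306 and 196 CPM there, and differed by 0.21 (SE 0.36, adjusted p = 0.826) in testosterone sheep, with 44.5, 159.8, 81.2 and 64.8 CPM. Control perirenal libraries, at 154, 195, 276 and 92.9 CPM, overlapped the subcutaneous ones. COL6A2 was higher by 0.44 (SE 0.13, adjusted p = 0.0196) in control sheep and differed by 0.08 (SE 0.23, adjusted p = 0.912) in testosterone sheep.

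Lower chains in subcutaneous fat were again partly those that stood out in epicardial fat, and the contrasts share libraries. COL13A1 had 0, 0.520, 0 and 0.181 CPM in subcutaneous fat of testosterone sheep and 0, 0.265, 0 and 0.181 CPM in control sheep, against 0.161 to 11.1 (median 1.96) and 0.504 to 9.99 (median 1.59) CPM in the other depots. Only in control sheep did the groups not overlap. Its log2 difference was -3.56 (SE 0.89, adjusted p = 0.0469) in testosterone sheep and -4.23 (SE 0.95, adjusted p = 0.00489) in control sheep, a fitted value that rests on few counts. COL28A1 differed by -2.72 (SE 0.56, adjusted p = 0.0194) in testosterone sheep and -1.03 (SE 0.35, adjusted p = 0.0406) in control sheep. In control sheep it averaged 2.66 CPM in subcutaneous, 2.28 in visceral, 4.43 in perirenal and 12.6 CPM in epicardial fat, so subcutaneous fat was not the lowest depot. Its control call ended without the epicardial library of sheep 98. COL14A1, a fibril-associated chain that regulates fibril growth, had 75.5, 36.6, 39.8 and 76.6 CPM in subcutaneous fat of testosterone sheep and 92.5, 40.0, 99.0 and 64.2 CPM in control sheep, with overlap in both groups. Its log2 difference was -1.19 (SE 0.28, adjusted p = 0.0352) in testosterone sheep and -0.75 (SE 0.21, adjusted p = 0.0171) in control sheep. COL8A1 and COL21A1 were lower in control sheep, with log2 differences of -1.56 (SE 0.47, adjusted p = 0.0364) and -0.96 (SE 0.32, adjusted p = 0.0376). In control sheep the calls of COL4A1, COL4A2 and COL13A1 held in every fit tried, and in testosterone sheep none of the 4 did. Without sheep 48, 185 or 233 the testosterone calls numbered 2, 0 and 0, and without sheep 98 the control calls numbered 4. Without the 3 libraries that stand apart, 1 member was higher and 2 were lower in testosterone sheep, and the call of COL13A1 ended. Without the heart-rich epicardial library of sheep 48, 0 were higher and 4 lower by edgeR, 3 of the 4 earlier calls among them, and the call of COL4A2 ended. Without that of sheep 98, 4 were higher and 5 lower in control sheep, 8 of the 9 among them. Of the Schwann cell markers, 0 of 6 tested were called in testosterone sheep (5 at unadjusted p under 0.05) and 4 of 5 were lower in control sheep. They summed to 235 to 579.8 CPM in testosterone sheep, with 0 of 6 at 0, and 240.5 to 494 CPM in control sheep, with 1 at 0. Of 10 fibroblast and progenitor markers, 2 were lower and 0 higher in testosterone sheep, and 6 were lower and 2 higher in control sheep. In control sheep 4 of 8 smooth muscle and pericyte markers, 3 of 7 macrophage markers and 2 of 2 mesothelial markers tested were lower, and 3 of 5 nuclear retained transcripts were higher. In testosterone sheep edgeR called 0 of the 8 (2 at unadjusted p under 0.05), 0 of the 7 (1), 1 of the 2, which was lower, and 0 of the 5 (1). The 6 mesothelial markers summed to 1.30 to 8.09 CPM in subcutaneous fat of testosterone sheep, with 2 at 0, and 1.63 to 4.50 CPM in control sheep, with 0 at 0, where their other depots had 48.0 to 232 CPM (testosterone) and 55.2 to 156 CPM (control). The smooth muscle and pericyte markers summed to 511 to 1119 CPM in subcutaneous fat of testosterone sheep and 483 to 677 CPM in control sheep, and the nuclear retained transcripts to 3792 to 39049 CPM in testosterone sheep and 3313 to 4552 CPM in control sheep. The part of these transcripts in the subcutaneous values was not tested.

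Perirenal fat, around the kidney, had lower COL6A6 in both groups, and edgeR called no member higher there. In testosterone sheep 0 of 27 members were higher and 2 lower, against 0.455% and 0.104% of all genes tested, 0.559% in all. In control sheep 0 were higher and 5 lower, against 7.6% and 6.15% of all genes, 13.7% in all. COL6A6 was called in both. It had 2.42, 2.74, 5.73 and 5.03 CPM in perirenal fat of testosterone sheep and 1.18, 1.06, 1.51 and 3.61 CPM in control sheep, and overlapped visceral fat in both. The log2 difference was -2.003 (SE 0.37, adjusted p = 0.0249) in testosterone sheep and -2.52 (SE 0.49, adjusted p = 0.00629) in control sheep. COL5A3 was lower, at -1.06 (SE 0.20, adjusted p = 0.0289) in testosterone sheep and differed by -0.64 (SE 0.23, adjusted p = 0.0831) in control sheep. The other control calls were COL27A1 at -1.12, COL3A1 at -0.80, COL5A2 at -0.54 and COL4A1 at -0.54, with edgeR adjusted p between 0.0107 and 0.0452. These contrasts share libraries with the epicardial ones. In control sheep COL27A1 averaged 2.28 (perirenal), 2.80 (visceral), 3.19 (subcutaneous) and 13.9 CPM (epicardial). COL3A1 averaged 420.0 (perirenal), 453 (visceral), 639.6 (subcutaneous) and 1229.6 CPM (epicardial). COL6A6 in control sheep was the only perirenal call that held in every fit tried. Without any 1 of the 4 testosterone sheep 0 members were called in that group, and without the 3 libraries that stand apart 5 were, 1 of them higher. In control sheep 2 were called without sheep 98, 3 without sheep 132 and 2 without sheep 201, where 1 of the 2 was higher. DESeq2 called 1 member higher in each group. Without the heart-rich epicardial libraries the calls numbered 2 in testosterone sheep (without that of sheep 48) and 6 in control sheep (without that of sheep 98), with 4 of the 5 control calls among the 6. Other transcripts moved with the perirenal samples of control sheep. Of 8 smooth muscle and pericyte markers 3 were higher, of 8 endothelial markers 2 were higher, and of 5 nuclear retained transcripts 4 were lower in control sheep. By edgeR 0 of these 8, 8 and 5 were called in testosterone sheep (2, 1 and 4 at unadjusted p under 0.05), where 2 of 10 fibroblast and progenitor markers were higher. In perirenal fat the smooth muscle and pericyte markers summed to 515 to 641 CPM in testosterone sheep and 517 to 1441 CPM in control sheep, where their other depots had 470.1 to 1119 CPM (testosterone) and 400.3 to 897 CPM (control). The nuclear retained transcripts summed to 1781 to 2979 CPM in testosterone sheep and 2043 to 2641 CPM in control sheep, where their other depots had 2364 to 39049 CPM (testosterone) and 2004 to 4624 CPM (control). None of these markers was at 0 in either group. Their part in the perirenal values was not tested.

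Visceral fat had 0 of 27 members called in testosterone sheep by edgeR (10 at unadjusted p under 0.05, and 1 called by DESeq2), where 0.0895% of all genes passed, 0.0671% higher and 0.0224% lower. In control sheep 1 was higher and 2 lower, against 3.64% and 2.12% of all genes, 5.76% in all. COL8A2 was higher by 0.82 (SE 0.22, adjusted p = 0.0402), and COL12A1 and COL28A1 were lower, at -1.09 (SE 0.27, adjusted p = 0.0388) and -1.16 (SE 0.33, adjusted p = 0.0493). None of these 3 calls held in every fit tried. Without sheep 98 only 1 member was called, COL3A1, which is not among the 3. Without sheep 131 there were 0, and without sheep 201 there was 1, COL12A1. In testosterone sheep 1 member was called without the 3 libraries that stand apart and 0 without the epicardial library of sheep 48 by edgeR, and in control sheep 1 was called without that of sheep 98. Of 10 fibroblast and progenitor markers and 7 macrophage markers, 2 each were higher in control sheep, and their part was not tested. The visceral library of testosterone sheep 233 was the highest of all 32 libraries for 7 of 29 members, among them COL1A1, COL1A2 and COL3A1. It was also the highest of the 32 for the summed fibroblast and progenitor markers, at 6694 CPM. The other visceral libraries reached at most 3893 CPM, in testosterone sheep 185. Its mesothelial markers, at 232 CPM, were the highest as well. The part of these cells in its collagen values was not tested.

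Pairs of depots were compared directly. For perirenal minus epicardial fat 0 members were higher and 4 lower in testosterone sheep (1.82% of all genes called in either direction), and 1 was higher and 16 lower in control sheep (25.3%). For subcutaneous minus epicardial fat 1 was higher and 6 lower in testosterone sheep (4.5%), and 3 were higher and 12 lower in control sheep (23.3%). For visceral minus epicardial fat 0 were higher and 3 lower in testosterone sheep (1.66%), and 1 was higher and 10 lower in control sheep (21.9%). Pairs without epicardial fat gave fewer calls in each group. Subcutaneous minus perirenal fat gave 1 higher and 0 lower in testosterone sheep (2.23%), and 7 higher and 1 lower in control sheep (23.7%). Visceral minus subcutaneous fat gave 2 higher and 0 lower in testosterone sheep (0.664%), and 2 higher and 3 lower in control sheep (13.8%, with 7.55% higher and 6.3% lower). Without sheep 48, 185 or 233 the 17 calls over all pairs in testosterone sheep numbered 6, 4 and 3, and without sheep 201 the 56 in control sheep numbered 37. Visceral minus perirenal fat gave 0 members in testosterone sheep (0.082%; 13 at unadjusted p under 0.05) and 0 in control sheep (0.613%; 3 at unadjusted p under 0.05) by edgeR.

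The most abundant chain of each class is given by depot as the mean ± SD of 4 libraries. COL4A1 averaged 2369 ± 491 (visceral), 2787 ± 689 (subcutaneous), 1596 ± 196 (perirenal) and 1716 ± 356 CPM (epicardial) in testosterone sheep, against 1868 ± 284 (visceral), 2649.6 ± 375 (subcutaneous), 1412 ± 389 (perirenal) and 1662 ± 342 CPM (epicardial) in control sheep. Subcutaneous fat stood highest in both groups. COL3A1 averaged 876 ± 1009 (visceral), 556 ± 302 (subcutaneous), 756 ± 505 (perirenal) and 786 ± 183 CPM (epicardial) in testosterone sheep, against 453 ± 163 (visceral), 639.6 ± 199 (subcutaneous), 420.0 ± 187 (perirenal) and 1229.6 ± 105 CPM (epicardial) in control sheep. In testosterone sheep the visceral mean includes 2376 CPM in sheep 233, and the medians were 423 (visceral), 526 (subcutaneous), 565 (perirenal) and 799 CPM (epicardial). COL15A1 averaged 606 ± 57.8 (visceral), 487 ± 28.9 (subcutaneous), 477 ± 188 (perirenal) and 388 ± 47.9 CPM (epicardial) in testosterone sheep, against 321 ± 78.8 (visceral), 393 ± 81.9 (subcutaneous), 284 ± 70.8 (perirenal) and 358 ± 48.7 CPM (epicardial) in control sheep. In control sheep its one call between pairs of depots was subcutaneous minus perirenal fat, at 0.48 (SE 0.14, adjusted p = 0.0194) by edgeR. COL6A1 averaged 246 ± 131 (visceral), 257 ± 91.7 (subcutaneous), 268 ± 73.9 (perirenal) and 214 ± 53.3 CPM (epicardial) in testosterone sheep, against 273 ± 70.9 (visceral), 338 ± 87.3 (subcutaneous), 260.4 ± 62.6 (perirenal) and 286 ± 27.9 CPM (epicardial) in control sheep.

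COL8A1 averaged 327 ± 331 (visceral), 155 ± 105 (subcutaneous), 125 ± 76.6 (perirenal) and 444 ± 133 CPM (epicardial) in testosterone sheep, against 613 ± 347 (visceral), 149 ± 15.5 (subcutaneous), 276 ± 231 (perirenal) and 675 ± 135 CPM (epicardial) in control sheep. Its spread was widest in visceral fat. COL14A1 averaged 183 ± 63.7 (visceral), 57.1 ± 21.9 (subcutaneous), 108 ± 31.7 (perirenal) and 114 ± 19.5 CPM (epicardial) in testosterone sheep, against 121 ± 49.4 (visceral), 73.9 ± 27.2 (subcutaneous), 109 ± 12.5 (perirenal) and 137 ± 7.16 CPM (epicardial) in control sheep. Subcutaneous fat stood lowest in both groups. COL28A1 averaged 4.86 ± 1.91 (visceral), 0.973 ± 1.18 (subcutaneous), 2.39 ± 0.979 (perirenal) and 6.91 ± 5.55 CPM (epicardial) in testosterone sheep, against 2.28 ± 1.31 (visceral), 2.66 ± 2.40 (subcutaneous), 4.43 ± 2.23 (perirenal) and 12.6 ± 8.54 CPM (epicardial) in control sheep. COL13A1 averaged 3.42 ± 1.28 (visceral), 0.175 ± 0.245 (subcutaneous), 0.638 ± 0.474 (perirenal) and 6.01 ± 5.29 CPM (epicardial) in testosterone sheep, against 2.07 ± 1.45 (visceral), 0.111 ± 0.133 (subcutaneous), 1.38 ± 0.629 (perirenal) and 5.42 ± 3.601 CPM (epicardial) in control sheep. Both chains stood highest in epicardial fat in both groups. Epicardial fat had the highest mean for 13 of 29 members in testosterone sheep and 20 of 29 in control sheep.

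Of 29 enzymes that mature, fold or cross-link collagen, 24 were tested. In epicardial fat 1 was higher in testosterone sheep, LOXL3, a lysyl oxidase that cross-links fibrils, at 0.89. In control sheep 7 were higher and 0 lower, among them the procollagen protease ADAMTS3 at 1.53, the foldase FKBP10 at 1.12, the prolyl hydroxylase P3H2 at 0.92 and the lysyl oxidase LOXL1 at 0.91 on the log2 scale (edgeR, adjusted p at most 0.0141 for these 4). In subcutaneous fat 3 were lower in testosterone sheep, namely PCOLCE2, an enhancer of procollagen processing, at -1.61, P3H2 at -1.52 and the prolyl hydroxylase subunit P4HA1 at -1.02. In control sheep 1 was higher and 6 lower there, with P3H2 at -2.20, LOXL1 at -1.40, the collagen chaperone SERPINH1 at -0.98 and P4HA1 at -0.91. In perirenal fat 1 was higher and 1 lower in testosterone sheep, and 2 were higher and 4 lower in control sheep. PCOLCE2 was called there in both groups with opposite signs, 1.28 (SE 0.25, adjusted p = 0.0362) in testosterone sheep and -0.73 (SE 0.17, adjusted p = 0.00983) in control sheep. The 2 values come from separate fits and are not a test of a difference between the groups. In edgeR's test of testosterone within perirenal fat 0% of all genes passed. LOXL3 was lower in both groups, at -1.30 in testosterone sheep and -0.97 in control sheep, and the procollagen protease BMP1 was lower in control sheep, at -1.40, where P3H2 was higher, at 0.77. In visceral fat 0 were called in testosterone sheep by edgeR (2 at unadjusted p under 0.05), and PCOLCE2 and P4HA1 were higher in control sheep, at 0.92 and 0.50. Of all genes tested, 4.46% (epicardial), 2.54% (subcutaneous), 0.559% (perirenal) and 0.0895% (visceral) were called in either direction in testosterone sheep. In control sheep the shares were 27.7% (epicardial), 23% (subcutaneous), 13.7% (perirenal) and 5.76% (visceral). In epicardial and subcutaneous fat of control sheep the enzymes called were close to the share of all genes. Whether the enzyme calls hold with a sheep left out was not examined.

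Of 10 collagen receptors 7 were tested. The shares of all genes called in each depot, given above for the enzymes, apply to them too. Their calls were not examined with a sheep left out either. In epicardial fat DDR2, a tyrosine kinase receptor for fibrillar collagen, was lower, at -1.10 in testosterone sheep and -0.76 in control sheep on the log2 scale. The integrin subunit ITGA2 was lower too, at -1.35 in testosterone sheep and -1.51 in control sheep. MRC2, an endocytic receptor for collagen, was higher there in control sheep, at 1.31. In subcutaneous fat the signs were the other way round, with DDR2 higher by 0.90 in testosterone sheep and 0.79 in control sheep, and MRC2 lower, at -1.02 in testosterone sheep and -1.02 in control sheep. The contrasts of these depots share libraries. The integrin subunit ITGA11 was higher in visceral fat of control sheep, at 0.98. In perirenal fat 0 receptors were called in either group by edgeR, with 2 at unadjusted p under 0.05 in testosterone sheep and 1 in control sheep.

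The second question was whether exposure to testosterone before birth changed collagen transcripts in the adult depots. By edgeR, 0 members passed in visceral (25 tested), subcutaneous (23), perirenal (24) and epicardial fat (28), where 0% of all genes passed in each depot, and 0 of 29 on counts summed over the depots of a sheep, where 0.00654% of all genes passed. At unadjusted p under 0.05 there were 7, 2, 2 and 5 members in the 4 depots in that order and 2 over depots. DESeq2 called 1 member in visceral fat, COL15A1, and 0 in the other 3 depots and over depots. In epicardial fat DESeq2 gave an adjusted p to 15 members only, so its 0 there does not cover the 28 that edgeR tested. Among all genes with an adjusted p DESeq2 called 29 of 13923 for visceral, 5 of 19786 for subcutaneous and 9 of 13482 for perirenal fat. It called 32 of 3387 for epicardial fat and 60 of 15756 over depots.

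COL15A1, a multiplexin of basement membranes that is also expressed by adipocytes, had 585, 594, 689 and 556 CPM in visceral fat of testosterone sheep 48, 185, 233 and 255, against 367, 404, 278 and 233 CPM in control sheep 98, 131, 132 and 201. The lowest testosterone library lay above the highest control library. The log2 fold change was 0.91 (SE 0.23, adjusted p = 0.520) by edgeR and 0.90 (adjusted p = 0.0492) by DESeq2, and 0.77 to 1.04 with 1 sheep left out, where edgeR's adjusted p lay between 0.227 and 0.798. Without the visceral library of sheep 255 it was 0.93. In perirenal fat it had 461, 373, 747 and 326 CPM in testosterone sheep and 339, 349, 244 and 206 CPM in control sheep, with overlap, and a log2 fold change of 0.74 (SE 0.28, adjusted p = 0.914) that was 0.43 without sheep 233. In subcutaneous and epicardial fat the log2 fold changes were 0.32 (SE 0.20, adjusted p = 0.927) and 0.12 (SE 0.16, adjusted p = 0.951). Over the summed depots it was 0.58 (SE 0.17, adjusted p = 0.640) by edgeR, and that of COL27A1, the other member at unadjusted p under 0.05, was 0.65 (SE 0.16, adjusted p = 0.592). Visceral libraries differed in other respects as well: adipocyte markers summed to 8794 to 30410.5 CPM in testosterone sheep and 31672 to 52563 CPM in control sheep, with 0 of 8 markers at 0 in either group. The groups did not overlap in this sum, and its part in the value of COL15A1 was not tested.

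Further members in visceral fat reached unadjusted p under 0.05 only. COL21A1 had 4.81, 3.47, 9.62 and 13.5 CPM in testosterone sheep and 3.01, 2.58, 1.43 and 1.87 CPM in control sheep, and COL4A5 lay at 2.40 to 25.6 CPM in testosterone sheep and 1.37 to 2.26 CPM in control sheep. Neither pair of groups overlapped, so that 3 members with COL15A1 were clear of the control group upward, against 2.81% of all genes tested. For COL4A5 the value of 25.6 CPM came from sheep 233, and the next was 3.91 CPM. The edgeR log2 fold changes were 1.77 (SE 0.48, adjusted p = 0.520) and 2.31 (SE 0.77, adjusted p = 0.520). COL4A5 and COL4A6 overlap each other in the RefSeq annotation, and reads within the overlap can be miscounted where strand is not used. Whether the overlap reaches the 3′ ends that were read was not examined. COL27A1, COL6A6, COL4A6 and COL18A1 had log2 fold changes of 1.96, 1.90, 1.77 and 0.66, each with overlapping groups. COL1A1 in visceral fat depended on sheep 233. It had 172, 163, 1556 and 289 CPM in testosterone sheep and 347, 186, 189.8 and 118 CPM in control sheep, a log2 fold change of 1.37 (SE 0.70, adjusted p = 0.529). Without the value of 1556 CPM the testosterone libraries lie within the control range. COL1A2 and COL3A1 also had their highest visceral values in sheep 233, at 371 and 2376 CPM. The other testosterone libraries reached 65.7 and 563 CPM at most, against 55.8 to 144 and 299 to 651 CPM in control sheep.

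In subcutaneous fat COL12A1 had 44.5, 159.8, 81.2 and 64.8 CPM in testosterone sheep and 208, 145, 306 and 196 CPM in control sheep. Only sheep 185 of the testosterone group reached the control range, and the log2 fold change was -1.26 (SE 0.36, adjusted p = 0.927). COL21A1 was higher in each testosterone library, at 4.05, 4.42, 3.48 and 3.44 CPM against 3.36, 1.59, 1.35 and 1.63 CPM in control libraries, the only member whose groups did not overlap (1.55% of all genes tested upward), with 0.94 (SE 0.41, adjusted p = 0.927). In perirenal fat no member had groups that did not overlap, and besides COL15A1 only COL6A6 reached unadjusted p under 0.05, with 1.17 (SE 0.46, adjusted p = 0.914).

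In epicardial fat the chains of types I and III did not pass the adjustment either. The values of COL3A1 given above, 580.0 to 965 CPM in testosterone sheep and 1075 to 1304 CPM in control sheep, did not overlap, and neither did those of COL1A2, at 107 to 195 CPM in testosterone sheep and 212 to 250.0 CPM in control sheep. These were 2 members clear downward, against 1.7% of all genes tested. The log2 fold changes were -0.64 (SE 0.19, adjusted p = 0.734), -0.63 (SE 0.20, adjusted p = 0.739) and, for COL1A1, -0.51 (SE 0.21, adjusted p = 0.856). COL8A1 differed by -0.59 (SE 0.24, adjusted p = 0.859) and COL27A1 by 0.85 (SE 0.35, adjusted p = 0.859). The median log2 fold change over the members tested was 0.59 for visceral, 0.03 for subcutaneous, 0.05 for perirenal and -0.25 for epicardial fat, and between 0.00 and 0.02 over all genes.

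**Figure D4:**
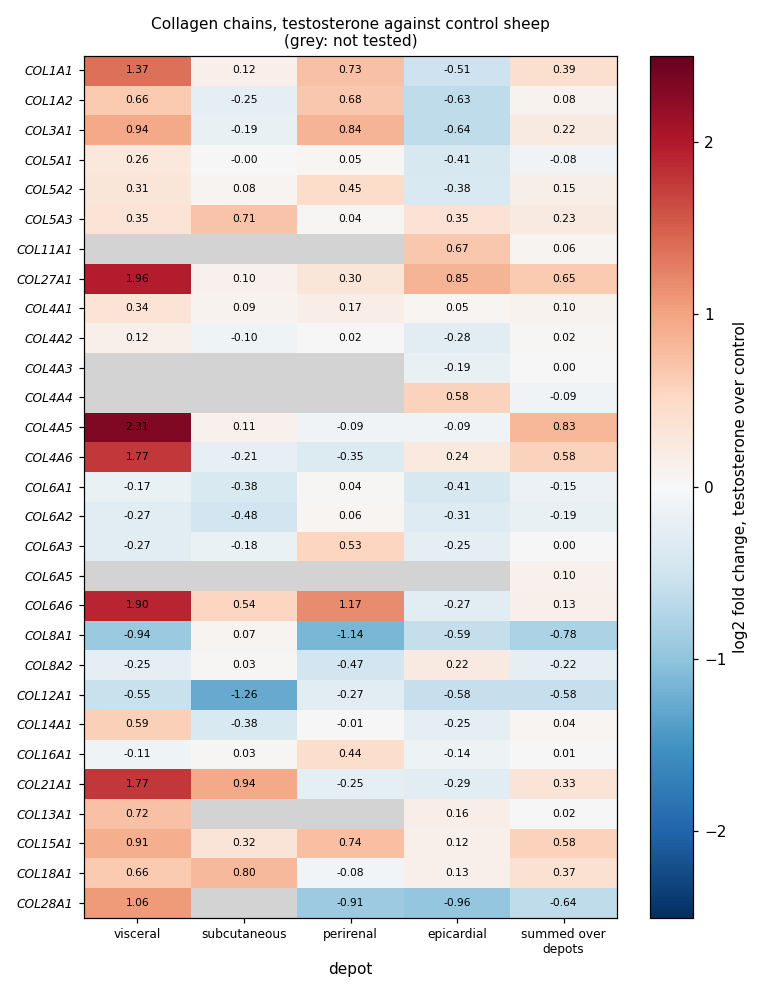
Log2 fold change of each collagen chain in testosterone over control sheep within each depot and on counts summed over depots (edgeR); grey cells were not tested. None passed the adjustment for all genes; COL15A1 is above 0 in all 4 depots, and COL1A1, COL1A2 and COL3A1 are above 0 in visceral and below 0 in epicardial fat.

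Pairs of chains were set against each other in 3 ratios of counts, COL1A1 to COL1A2 and COL4A1 to COL4A2 within a collagen type and COL3A1 to COL1A1 across types. COL1A1 to COL1A2 was 3.68 ± 0.719 in testosterone sheep and 2.44 ± 0.346 in control sheep in visceral fat, and 3.17 ± 0.805 in testosterone sheep and 2.79 ± 0.785 in control sheep in epicardial fat (SD, n = 4). Over the mean of the 4 depots of each sheep the log2 ratio differed by 0.28 between testosterone and control sheep (exact permutation test, two-sided, 4 sheep against 4, p = 0.143, adjusted 0.3 over the 3 ratios; the smallest p this design allows is 0.0286). COL3A1 to COL1A1 differed by -0.25 (exact permutation p = 0.4, adjusted 0.4) and ran from 0.980 in visceral fat to 7.24 in subcutaneous fat, both in testosterone sheep. COL4A1 to COL4A2 differed by 0.24 (exact permutation p = 0.2, adjusted 0.3). It was 10.3 ± 3.46 in testosterone sheep and 7.73 ± 0.937 in control sheep in epicardial fat, and 6.50 ± 2.35 in testosterone sheep and 5.40 ± 1.31 in control sheep in subcutaneous fat. All 32 libraries held more COL4A1 than COL4A2 tags, with ratios from 3.66 to 14.8. Tag counts compare molecules only as far as each gene's 3′ end is annotated.

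**Figure D5:**
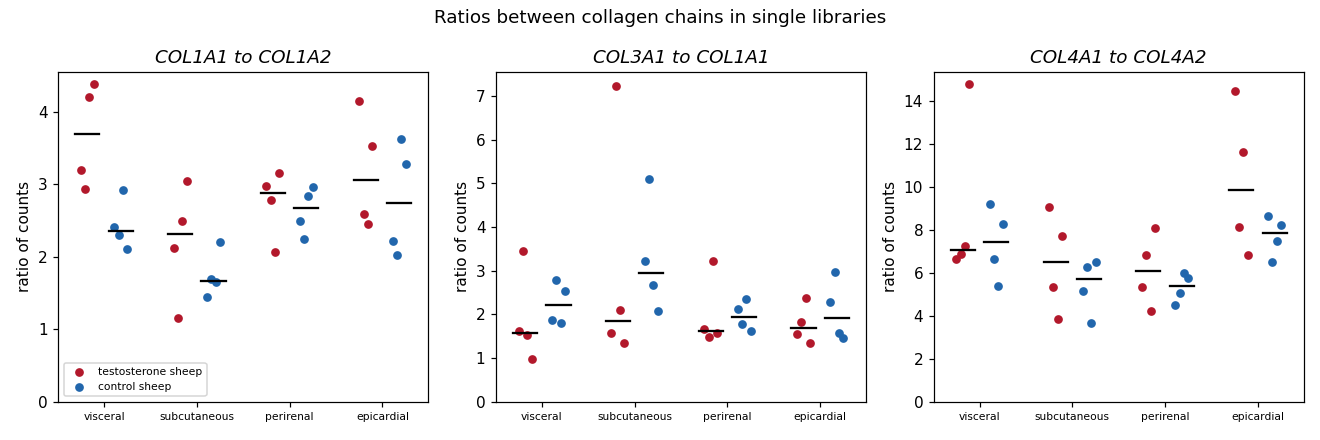
Ratio of counts of 3 pairs of collagen chains in single libraries (dots) with the median of each group as a bar, testosterone sheep left of control sheep in each depot. The groups overlap in each panel and depot except for COL1A1 to COL1A2 in visceral fat, and no ratio passed the exact permutation test between treatments (p from 0.143 to 0.4).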

How the data were processed

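Per the labels' protocols, total RNA with an integrity number of at least 7 was made into libraries with the QuantSeq 3′ mRNA-Seq kit. The authors deposited 1 table of whole-number read counts for 28524 genes in 32 libraries, and 0 of its sample columns were left unused. The submitters' processing notes name DESeq2 1.24.0 and R 3.6.3, featureCounts 1.6.1, STAR, Trimmomatic 0.36, MultiQC 0.9 and FastQC 0.11.5, without their roles. Build, annotation and strand setting were not given in the sources used here.

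CPM were computed from these counts with edgeR 4.0.16 in R 4.3.3 on TMM-scaled library sizes. Tests used edgeR's quasi-likelihood fit (robust; genes kept by filterByExpr at its minimum of 10 counts; Benjamini-Hochberg threshold 0.05 over every gene tested), and every adjusted p printed without another tool's name comes from it. An SE was taken as the absolute log2 value over the root of its F statistic. Testosterone effects were fitted within the 8 libraries of a depot and on counts summed over a sheep's depots. Depot contrasts were fitted within each treatment with the sheep as a block, since the labels give 1 animal number to all 4 depots. Deviations from group means correlated above 0.1 in 41 of 48 pairs of libraries of a sheep (mean 0.234). Ratios used counts plus 0.5. Of 48 pairs of replicate libraries 0 were identical.

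All 29 members matched a RefSeq table (assembly ARS-UI_Ramb_v3.0), in which 9 overlap another gene by whole gene span. Their counts are uncertain where strand was not used and the overlap covers the 3′ ends read, which was not examined. Among these 9 members are COL1A1, COL8A1 (with FILIP1L) and COL18A1, which overlap protein-coding genes, and COL4A5 with COL4A6. Every member that edgeR called in a comparison of a depot with the others is named, up to 12 per comparison. The most abundant chain of each class is named too, and the remaining chains are named to complete a molecule. Calls between pairs of depots are given as counts, apart from that of COL15A1. Members and lists were chosen with earlier results of these data known. Alternatives were DESeq2 1.42.0, RLE factors, no low count filter, no sheep block, each sheep left out, and leaving out the libraries that stand apart or are rich in heart muscle transcripts. COL6A4, COL19A1 and COL25A1 were not analysed here.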

Additional observations from a re-analysis of the deposited data

Results flagged for a closer look

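Within each group of 4 libraries, the highest or lowest value of each member, and of the members' summed CPM, was compared with the other 3 by Dixon's test, which marks about 1 in 20 groups by chance. It marked 19 of 240 groups (7.92%), 5 of them for the visceral library of testosterone sheep 233. In that library COL1A1 stood at 1556 CPM (163 to 289 in visceral fat of the other 3 testosterone sheep). COL1A2 stood at 371 CPM there (others 53.9 to 65.7), COL3A1 at 2376 CPM (281 to 563), COL4A5 at 25.6 CPM (2.40 to 3.91) and COL6A5 at 5.77 CPM (0 to 0.435). Perirenal fat of the same sheep held COL5A2 at 312 CPM (others 169.8 to 179), and its subcutaneous fat held COL4A4 at 0.151 CPM where the other 3 had none. That value is 1 count, and any count beside 3 libraries at 0 would be marked.

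In epicardial fat COL4A1 stood high in testosterone sheep 48, at 2248 CPM (1492 to 1576 in the other 3), and low in control sheep 131, at 1149 CPM (1828 to 1838). Control sheep 98 was high there for COL4A5, at 9.82 CPM (0.835 to 2.20), and for COL8A2, at 9.82 CPM (3.48 to 4.38), and control sheep 132 for COL6A5, at 7.75 CPM (0.916 to 1.88). In subcutaneous fat of control sheep the values apart were COL21A1 in sheep 98, at 3.36 CPM (1.35 to 1.63), COL4A2 and COL4A3 in sheep 132, at 619.7 CPM (461 to 467) and 3.15 CPM (0.719 to 0.904), COL4A4 in sheep 131, at 0 CPM (0.450 to 0.543), and COL4A6 in sheep 201, at 0.904 CPM (4.24 to 4.50). The other marked values were COL27A1 in perirenal fat of control sheep 131, at 3.34 CPM (1.77 to 2.02), and COL6A5 in visceral fat of control sheep 98, at 4.24 CPM (0.391 to 0.968).

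Among the 13 chains left out for low counts, 2 reached 10 or more counts in a testosterone library that also lay above every control library of the same depot, both in sheep 233. Signals under 10 counts were not listed, and the search covered this direction only. The reverse also occurred. COL9A3 had 12 counts in epicardial fat of control sheep 132, against 0 to 2 counts in testosterone sheep. COL11A2 had 11 counts in subcutaneous fat of control sheep 201 (3 to 6 in testosterone sheep). It also had 11 counts in epicardial fat of control sheep 98 (1 to 9 in testosterone sheep). COL17A1, a transmembrane collagen of epithelia, had 12 counts in subcutaneous fat, against 3 to 5 counts in control sheep. These counts are not scaled to library size. That library was deeper, with 6538042 total counts against 3519829 to 5354843 in the control libraries. COL24A1, a fibrillar chain, had 61 counts in visceral fat, against 0 to 2 counts in control sheep.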

How the results depend on the processing

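Counts of members called were recomputed under each alternative. Removing the sheep block, that is the pairing of depots by animal, gave in testosterone sheep 2 calls for subcutaneous, 0 for perirenal and 3 for epicardial fat (4, 2 and 8 with the block) and 8 over their pairs of depots (17). In control sheep it gave 1 in visceral and 2 in perirenal fat (3 and 5), and it moved no other count by over 1.5 times. DESeq2 gave 1 for testosterone in visceral fat (0 by edgeR), 1 in visceral and 6 in perirenal fat of testosterone sheep (0 and 2), 32 over their pairs of depots, and 5 in visceral and 8 in perirenal fat of control sheep. Without the 3 libraries that stand apart, testosterone sheep had 1 in visceral and 5 in perirenal fat and 32 over pairs of depots. Without the epicardial library of sheep 98, control sheep had 1 in visceral fat. With 1 sheep left out, calls in testosterone sheep ran from 3 to 10 for epicardial, 0 to 3 for subcutaneous, 0 to 0 for perirenal and 0 to 0 for visceral fat, and 3 to 24 over pairs. In control sheep they ran from 14 to 16 for epicardial, 4 to 7 for subcutaneous, 2 to 7 for perirenal and 0 to 2 for visceral fat, and 37 to 48 over pairs (56 with all 4 sheep). Testosterone effects and the interaction stayed at 0 with any 1 sheep left out. RLE factors and no low count filter kept each count within 1.5 times. No called result changed sign. For the members called in a depot comparison, or named or at unadjusted p under 0.05 in a testosterone effect, 1783 values were recomputed under the alternatives. Of these, 1481 kept their direction and stayed called or stayed uncalled, 261 lost the call, 1 gained it and 40 without a call changed sign. The 1481 include testosterone effects that were called in neither fit, so their number does not measure how firm the calls were. Other members, not counted here, also gained calls under some alternatives. Where a value differs the cause was not tested. With 4 sheep a group and as few as 784135 counts in a library, chains under 5 CPM rest on few counts, and a missing call does not show equal levels.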
